A study of Homo sapiens with 24 samples.

Results

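Nucleolar ribosome biogenesis and RNA polymerase I (Pol I) genes were examined in 2 human acute myeloid leukemia cell lines, MOLM-14 and MV4-11. From a list of 50 such genes, 43 of the 19775 genes with a probe set of their own were measured. Each gene was read from the probe set that names it alone, and where there were several the one with the highest mean log2 signal over all arrays was used. Of the other members, NOP56, DKC1, BOP1 and PPAN share their probe sets with other genes, and GNL3, DDX18 and EBNA1BP2 were not analysed here. The list covers 8 genes of Pol I and its factors, 4 of the snoRNP core and its assembly, 4 abundant nucleolar proteins, 17 of the small subunit processome and small subunit maturation, and 10 of large subunit assembly. The name abundant nucleolar proteins (NPM1, NCL, LYAR and GRWD1) is a label, and protein was not measured. By signal NPM1 lay above 99.7% of genes, NCL above 99.2%, LYAR above 82.3% and GRWD1 above 66.9%.

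Both lines carry FLT3-ITD, an internal duplication that keeps the receptor kinase FLT3 active. MV4-11 holds the mutated allele alone, whereas MOLM-14 also has wild-type FLT3. In each line, cultures were treated for 24 hours with Combination (ABT-869 and SAHA together), SAHA, ABT-869 or DMSO, with 3 cultures in each of the 8 groups and 1 Affymetrix U133 Plus 2.0 array per culture. ABT-869 is a tyrosine kinase inhibitor that acts on FLT3, and was used at 3 nM. SAHA inhibits histone deacetylases and was used at 6 µM. The doses inside Combination are not restated in the methods for the arrays. Every group is 1 established line, so the 3 cultures give the spread between cultures of that line and no more.

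Ribosomes are assembled in the nucleolus. Pol I transcribes the long precursor of the ribosomal RNAs, small nucleolar ribonucleoproteins (snoRNPs) modify and guide it, and separate sets of factors then build the small and the large subunit. Growing leukemia cells keep this pathway active, and MYC is a well known activator of its genes, which it binds with MAX at E-boxes.

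The promoter windows were searched for the E-box, which the choice of members did not use. The motif CACGTG reads the same on both strands, and it was looked for from 250 bases before to 50 bases after the start of each gene in the RefSeq promoter table (GRCh38.p14), which held a window for 37 of the 43 members. It was present in 14 of those 37 windows (37.8%), against 2030 of 27305 windows in the whole table (7.43%) and 1369 of 15384 windows of genes on the array (8.9%). It was in 6 of 16 windows of the Pol III genes (37.5%), 22 of 74 of the other ribosome biogenesis factors (29.7%), 3 of 11 of the MYC and MAX network (27.3%), 5 of 19 of the proliferation genes (26.3%) and 3 of 63 of the ribosomal protein genes (4.76%), so it is not particular to the members. By role, the members with an E-box anywhere in the window were 9 of 16 small subunit genes, 3 of 8 large subunit genes, both snoRNP genes with a window (FBL and RRP9), 0 of 4 abundant nucleolar proteins and 0 of 7 genes of Pol I and its factors. An E-box beginning within 50 bases of the start, a limit chosen after the positions were seen, was found in 13 of the 37 member windows (35.1%), against 784 of the 27305 windows (2.87%). A match is a description of these letters and not evidence of binding.

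To show the E-box where it lies near the start, 6 of the 13 such stretches, of members whose values follow, are printed 5′ to 3′ on the strand of the gene, with up to 20 bases on each side and the E-box in capitals. They are from UTP20 (chr12:101280075-101280120, + strand), NOP14 (chr4:2963366-2963411, - strand), PNO1 (chr2:68157877-68157922, + strand), PES1 (chr22:30591872-30591917, - strand), RRP9 (chr3:51941884-51941929, - strand) and FBL (chr19:39846348-39846393, - strand).
UTP20: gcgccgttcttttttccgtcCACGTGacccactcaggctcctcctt
NOP14: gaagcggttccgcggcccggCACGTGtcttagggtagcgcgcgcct
PNO1: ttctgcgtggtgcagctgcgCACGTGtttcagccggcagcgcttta
PES1: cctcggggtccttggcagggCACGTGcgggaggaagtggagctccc
RRP9: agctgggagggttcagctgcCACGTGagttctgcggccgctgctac
FBL: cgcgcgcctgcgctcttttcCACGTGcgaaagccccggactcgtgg
The window of POLR1A, the member with the largest rise, is given whole for contrast (chr2:86105837-86106136, - strand), all in lower case since it holds no E-box.
POLR1A: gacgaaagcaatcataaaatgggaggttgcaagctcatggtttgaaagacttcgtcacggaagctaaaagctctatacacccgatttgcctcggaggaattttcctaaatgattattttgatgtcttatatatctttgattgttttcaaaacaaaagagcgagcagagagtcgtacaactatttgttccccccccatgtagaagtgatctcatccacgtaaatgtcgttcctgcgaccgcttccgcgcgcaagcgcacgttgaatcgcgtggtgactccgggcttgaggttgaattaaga
Members with and without an E-box are given side by side. With Combination in MV4-11 the median log2 change was 0.38 over the 14 members with an E-box, against 0.505 over the 23 without, and an E-box stood in 4 of 14 windows of members that rose there, against 10 of 23 windows of the other members.

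The values are the authors' linear signals, given per probe set and scaled to the same trimmed mean (500.1) on every array. They were compared on the log2 scale with limma, and a gene was counted as changed at an adjusted p under 0.05 (Benjamini-Hochberg over 54613 probe sets). Deviations from the group mean had an SD between 0.235 and 0.33 on the log2 scale, and 5 arrays were over 0.3: in MOLM-14 Combination replicate 1 and DMSO replicate 3, and in MV4-11 Combination replicates 2 and 3 and ABT-869 replicate 2. Myeloid genes were high in both lines (FLT3 averaged 10816 ± 350.4 in MOLM-14 with DMSO and 14998 ± 150.5 in MV4-11 with DMSO, SD, n = 3 each). The 15 measured markers of T, B, erythroid, epithelial, stromal and endothelial cells summed to 966 to 1830 on each array, and 0 of 15 changed with Combination in either line by limma at the threshold or at an unadjusted p under 0.05. In whole cultures, fewer cells of a kind and less RNA per cell cannot be told apart. The members were brightly measured: their mean log2 signal ran from 8.27 (UTP15) to 15.11 (NPM1), above 56.2% to 99.7% of genes.

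The lines differed before any drug was added. With DMSO, 19 of 43 members were higher in MOLM-14 than in MV4-11 (44.2%, against 8.19% of all genes) and 1 was lower (2.33%, against 6.51% of all genes), with a median log2 difference of 0.395 over the members and -0.11 over all genes. Centring the arrays on their medians moved the median of all genes to 0.15 and that of the members to 0.65, which shifts all genes alike. The members lay 0.50 above all genes as deposited and 0.38 above them after quantile normalization. Leaving out 1 array gave 11 to 22 calls, with 11 without MOLM-14 DMSO replicate 1 and 12 and 13 without MV4-11 DMSO replicates 1 and 2. In order of role, 4 of 8 genes of Pol I and its factors, 2 of 4 snoRNP genes, 8 of 17 small subunit genes and 4 of 10 large subunit genes were higher, and the abundant nucleolar proteins were split, with GRWD1 higher and NPM1 lower. The largest differences were those of GRWD1 (1.21, SE 0.20), a nucleolar WD-repeat protein, and RRP1B (0.80, SE 0.11), which takes part in rRNA processing.

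GRWD1 signal in MOLM-14 was 665, 598 and 793 with Combination, 553, 551 and 534 with SAHA, 887, 1424 and 1338 with ABT-869, and 1029, 999.5 and 857 with DMSO. In MV4-11 the GRWD1 readings were 618, 888 and 664 with Combination, 327, 438 and 562 with SAHA, 742, 754 and 801 with ABT-869, and 410.2, 432 and 403 with DMSO. All 3 MOLM-14 DMSO arrays lay above all 3 MV4-11 DMSO arrays (log2 1.21, adjusted p = 0.000686, limma), and GRWD1 stayed past the threshold under every alternative run. With Combination the arrays of the lines overlapped.
RRP1B signal in MOLM-14 was 6584, 6227 and 6329.9 with Combination, 6212, 5776 and 6026 with SAHA, 8224, 7908 and 8102 with ABT-869, and 6759, 5733 and 6332 with DMSO. In MV4-11 the RRP1B readings were 6806, 7991 and 7263 with Combination, 5226, 5118 and 5762 with SAHA, 5006, 3922 and 5258 with ABT-869, and 3599, 3429 and 3756 with DMSO. The MV4-11 DMSO arrays were the lowest of all 24, and every MOLM-14 array lay above them (adjusted p = 0.00018, limma). A second, dimmer probe set of RRP1B gave a log2 difference of -0.19 (SE 0.31, adjusted p = 0.794), and the mean of both was not past the threshold.

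NPM1, nucleophosmin, was the brightest member and the only one called lower in MOLM-14 with DMSO (-0.46, SE 0.13, adjusted p = 0.0357, limma). NPM1 signal in MOLM-14 was 33362, 30526 and 29545 with Combination, 28224, 29804 and 27625 with SAHA, 42043, 32756 and 28328 with ABT-869, and 30745, 34232 and 26951 with DMSO. In MV4-11 the NPM1 readings were 35771, 41755 and 37990.5 with Combination, 37473, 37321 and 36886 with SAHA, 40259.7, 49430.2 and 42152 with ABT-869, and 44904, 42049 and 39021 with DMSO. The DMSO arrays of the lines did not overlap, but the call was lost under quantile normalization, with arrays centred on their medians, with the mean of the 3 NPM1 probe sets and without any of 5 of the 6 DMSO arrays, and adjusted p ran to 0.651. NPM1 did not pass the threshold with any treatment.

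The 53 measured ribosomal protein genes, whose products the pathway assembles, went the other way from its factors. With DMSO 37 of 53 were lower in MOLM-14 and 0 were higher (median -0.47), among them RPL34 (-0.62) and RPS18 (-0.605). Of the 82 other ribosome biogenesis factors 28 were higher in MOLM-14 and 1 was lower (median 0.29), and of 24 proliferation genes 13 were higher and 0 lower (median 0.47). MYC was lower in MOLM-14 with DMSO (-0.59, SE 0.10, adjusted p = 0.000776, limma), at 13919.6 ± 314 in MOLM-14 against 20907 ± 359.9 in MV4-11 (SD, n = 3 each).

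**Figure D1:**
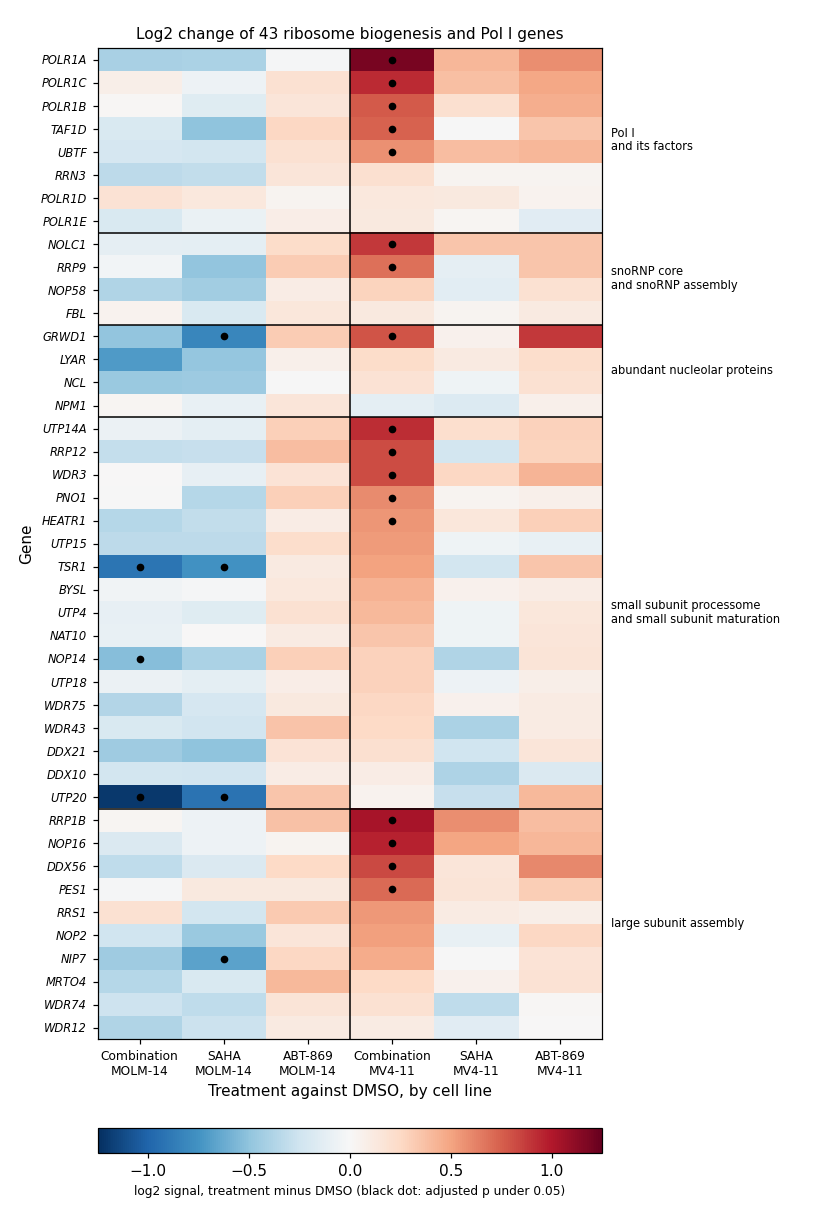
Log2 change of each of the 43 genes (rows, grouped by role) for each treatment against DMSO (columns, MOLM-14 left and MV4-11 right), in color from blue (lower) to red (higher), with a black dot at an adjusted p under 0.05. The Combination column of MOLM-14 is blue in 35 of 43 rows with 3 dots, while that of MV4-11 is red in 42 rows with 17 dots.

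Combination raised ribosome biogenesis genes in MV4-11. Against DMSO, 17 of 43 members rose and 0 fell (39.5% higher, against 7.1% of all genes, and 0 lower, against 5.82%), and the median log2 change was 0.46, against -0.05 over all genes. Of the 8652 genes at least as bright as the dimmest member, 13.8% rose. No member fell at an unadjusted p under 0.05 or by limma-trend, while 26 were higher at that unadjusted p and 25 by limma-trend. Of all 19775 genes, 2932 were higher and 2683 lower at that unadjusted p. Among the 8652 genes as bright, 2269 were higher and 1720 lower. In 30 members all 3 Combination arrays lay above all 3 DMSO arrays, and in 0 members all 3 lay below. Such separation was not counted over all genes, so these counts have no share to be set against. NPM1 was the 1 member with a log2 change below 0 (-0.13).

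Among the 43 members the largest rise was that of 1 Pol I gene, POLR1A. Of the 8 genes of Pol I and its factors, POLR1A, POLR1B, POLR1C, TAF1D and UBTF rose, and POLR1D, POLR1E and RRN3 did not pass the threshold. POLR1A encodes the catalytic largest subunit, and its signal in MOLM-14 was 679, 613 and 607 with Combination, 693, 507 and 733 with SAHA, 792, 842 and 844 with ABT-869, and 1081, 725 and 744 with DMSO. In MV4-11 the POLR1A readings were 1211, 1184 and 1413 with Combination, 584, 781 and 901 with SAHA, 884, 875 and 739 with ABT-869, and 554, 540.1 and 574 with DMSO. POLR1A rose in MV4-11 with Combination, to 1269 ± 125 against 556 ± 16.9 with DMSO (SD, n = 3 each, log2 1.19, SE 0.17, adjusted p = 0.00363, limma), and its 3 Combination arrays were the highest of all 24 arrays. The 2 dimmer probe sets of POLR1A gave log2 changes of 2.30 (adjusted p = 0.0347) and 0.50 (adjusted p = 0.126) there.
POLR1B is the second largest subunit, and its signal in MOLM-14 was 2210.2, 2224 and 2252 with Combination, 2038, 1943 and 1999 with SAHA, 2592, 2304 and 2499 with ABT-869, and 2142, 2196 and 2295 with DMSO. In MV4-11 the POLR1B readings were 2751, 2766 and 2897 with Combination, 1831, 2002 and 1846 with SAHA, 2456, 2099.7 and 2235 with ABT-869, and 1694, 1592 and 1669.8 with DMSO. Its rise of 0.76 (SE 0.11, adjusted p = 0.00351, limma) separated the groups of MV4-11 cleanly, whereas MOLM-14 Combination and DMSO arrays overlapped.
POLR1C, a subunit that Pol I shares with Pol III, had a signal in MOLM-14 of 1684, 1954 and 1833 with Combination, 1808, 1492 and 1695 with SAHA, 1901, 2133 and 1900.5 with ABT-869, and 1813, 1734 and 1646 with DMSO. In MV4-11 the POLR1C readings were 2034, 1950.1 and 2303 with Combination, 1512, 1371 and 1367 with SAHA, 1658, 1472 and 1457 with ABT-869, and 955, 1142 and 1194 with DMSO. It rose by 0.94 (SE 0.13, adjusted p = 0.00336, limma) in MV4-11, where Combination and DMSO arrays did not overlap.
UBTF binds the ribosomal DNA promoter, and its signal in MOLM-14 was 608, 906 and 737 with Combination, 754, 717 and 722 with SAHA, 1080.3, 946 and 929 with ABT-869, and 881, 761 and 944 with DMSO. In MV4-11 the UBTF readings were 889, 876 and 1023 with Combination, 787, 798 and 853 with SAHA, 809.9, 828 and 856 with ABT-869, and 568, 713 and 596 with DMSO. It rose by 0.57 (SE 0.13, adjusted p = 0.0237, limma), a call that 4 of the 12 single-array removals ended, those of MV4-11 DMSO replicates 1 and 3 and Combination replicates 1 and 3, and adjusted p over the alternatives ran to 0.157.
TAF1D belongs to the promoter selectivity factor SL1, and its signal in MOLM-14 was 590.3, 392 and 409.6 with Combination, 408, 332 and 365 with SAHA, 633, 606 and 624 with ABT-869, and 512, 588 and 468 with DMSO. In MV4-11 the TAF1D readings were 839.6, 719.8 and 609 with Combination, 430.5, 470.3 and 386 with SAHA, 572, 473 and 597 with ABT-869, and 471, 349.5 and 481 with DMSO. Its rise of 0.74 (SE 0.18, adjusted p = 0.0374, limma) was lost when any of 10 of the 12 arrays was left out.
The remaining Pol I genes, POLR1D, POLR1E and RRN3, did not pass the threshold with Combination in either line. POLR1D, the other subunit shared with Pol III, was bright at 15677, 13753 and 14674 with Combination, 13535, 14589 and 14532 with SAHA, 13266, 12940.0 and 13572 with ABT-869, and 12547, 13746 and 12585 with DMSO in MOLM-14 and 14636, 16553 and 16252 with Combination, 16319, 15395 and 15166 with SAHA, 14055, 16360.5 and 14247 with ABT-869, and 14385, 14626 and 14142 with DMSO in MV4-11. Its log2 change with Combination was 0.18 in MOLM-14 and 0.135 in MV4-11, and neither passed the threshold.
POLR1E, a Pol I subunit that helps the enzyme initiate, had signals of 1487, 1639 and 1617 with Combination, 1747, 1695 and 1647 with SAHA, 1671, 2107 and 1974 with ABT-869, and 1782, 1764 and 1857 with DMSO in MOLM-14. In MV4-11 the POLR1E readings were 1974, 1873 and 1983 with Combination, 1866, 1803 and 1779 with SAHA, 1627, 1741 and 1512 with ABT-869, and 1724, 1699.5 and 1958 with DMSO. The Combination arrays of MOLM-14 lay below its DMSO arrays without passing the threshold (-0.19), and those of MV4-11 overlapped with DMSO (0.12).
RRN3, the factor that brings Pol I to the promoter, had signals of 1598, 1229.6 and 1541 with Combination, 1332, 1647 and 1429.7 with SAHA, 2047, 1867 and 2153 with ABT-869, and 1616, 1707 and 2160.4 with DMSO in MOLM-14. In MV4-11 the RRN3 readings were 1777, 1709 and 1544 with Combination, 1619, 1549 and 1321 with SAHA, 1517, 1332 and 1646 with ABT-869, and 1552, 1296 and 1538 with DMSO. Its log2 change with Combination was -0.325 in MOLM-14 and 0.20 in MV4-11, and in neither line did it pass the threshold.

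**Figure D2:**
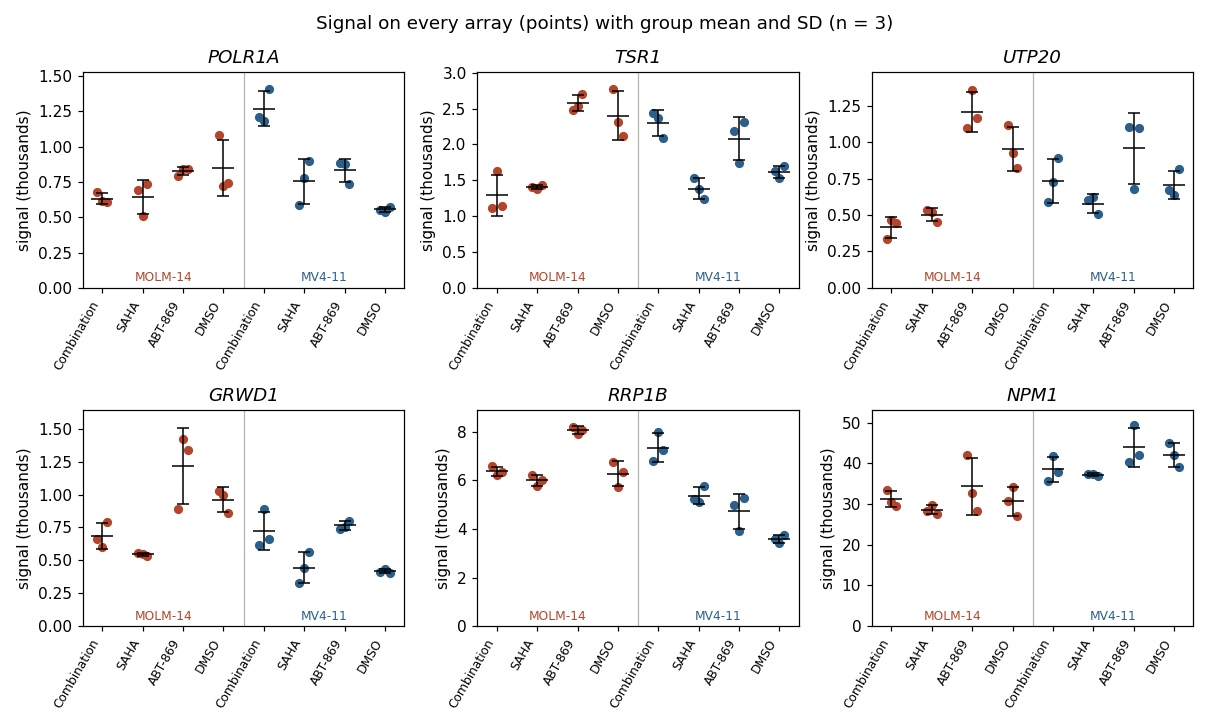
Linear signal (kilo-units) on every array (points) with the group mean and SD (bars, n = 3) for 6 genes, MOLM-14 left and MV4-11 right in each panel. POLR1A is highest on the 3 MV4-11 Combination arrays (1184 to 1413), and NPM1 shows the brighter MV4-11 DMSO arrays. TSR1 and UTP20 are low on the MOLM-14 Combination and SAHA arrays. With SAHA in MV4-11, TSR1 (1242 to 1530) and UTP20 (505 to 626) are low as well.

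Genes of the later steps rose as well. Of the snoRNP genes, NOLC1, an assembly chaperone of snoRNPs, rose by 0.88 (SE 0.11) and RRP9, a protein of the U3 snoRNP, by 0.69 (SE 0.18), a call that 9 of the 12 single-array removals ended, while FBL, the rRNA methyltransferase fibrillarin, was at 0.12. The small subunit factors that rose were UTP14A (0.92), RRP12 (0.82), WDR3 (0.81), PNO1 (0.59) and HEATR1 (0.55), 5 of 17. On the large subunit side RRP1B (1.03), NOP16 (0.96), DDX56 (0.83) and PES1 (0.71) rose, 4 of 10. GRWD1 rose by 0.78, a call that 10 of the 12 single-array removals ended, and NCL (0.18), LYAR (0.23) and NPM1 did not pass the threshold. With the mean of all probe sets of a gene, RRP1B (adjusted p = 0.108), NOP16 (0.131), DDX56 (0.0974), PES1 (0.806), HEATR1 (0.538) and UBTF (0.0814) were no longer past the threshold, and the log2 changes of PES1 and HEATR1 were 0.154 and 0.242. Single-array removals also ended the calls of DDX56 (5 of 12), PNO1 (4), RRP12 (4) and HEATR1 (2). RRP1B and POLR1A were the 2 largest rises, and 2 of the 17 genes reached 2-fold. Leaving out 1 array gave 10 to 17 rises, with 10 without MV4-11 DMSO replicate 1 or 2 and 11 without DMSO replicate 3 or Combination replicate 2, and a fit of the 6 arrays of the 2 groups alone gave 2. The other probe sets of these 17 genes, 30 in number, had the opposite sign in 5 cases (of HEATR1, PES1, PNO1 and UBTF), with 0 of the 5 past the threshold.

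Neither drug alone passed the threshold for any member in MV4-11. With SAHA, 0 of 43 members changed by limma (1.52% of all genes were lower and 2.45% higher), with a median of 0.03 and 4 lower and 6 higher at an unadjusted p under 0.05. Of all 19775 genes, 1992 were lower and 2068 higher at that p with SAHA. With ABT-869, 0 of 43 changed by limma (0.779% of all genes lower and 0.516% higher), although 40 of 43 log2 changes were above 0, with a median of 0.19 and 13 higher at an unadjusted p under 0.05. Of all 19775 genes, 1468 were lower and 1633 higher at that p with ABT-869. By limma-trend, which lets the prior spread follow the signal, 5 members changed with SAHA (1 lower, 4 higher) and 8 rose with ABT-869. Against SAHA alone, Combination was above in all 43 members (median 0.47, 31 at an unadjusted p under 0.05), but RRP12 (1.052) was the only one called by limma (2.33%, against 0.263% of all genes higher and 1.0% lower), whereas limma-trend called 27 and 10 of the 12 single-array removals left 0. Of all 19775 genes, 1663 were higher and 1521 lower at that unadjusted p. Against ABT-869 alone, NOLC1 (0.54), UTP14A (0.63) and RRP1B (0.645) were higher (6.98%, against 3.14% of all genes higher and 2.9% lower). Among the 8652 genes at least as bright as the dimmest member, 6.0% were higher and 5.47% lower. The share of the members is near that of genes as bright, so this count does not set them apart. By limma-trend 12 were called, and 11 of the 12 single-array removals left 0.

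In MOLM-14 Combination lowered 3 small subunit genes and raised none of the members. In all, 3 of 43 members fell against DMSO and 0 rose (6.98% lower, against 4.18% of all genes, and 0 higher, against 4.72%), with a median of -0.21. At an unadjusted p under 0.05, 15 were lower and 0 higher, and limma-trend called 13 lower and 0 higher. Of all 19775 genes, 2327 were lower and 2511 higher at that unadjusted p. Among the 8652 genes as bright, 1776 were lower and 1747 higher. In 23 members all 3 Combination arrays lay below all 3 DMSO arrays, and in 2 all lay above, again without a count over all genes. The 3 genes that fell, UTP20 (-1.21), TSR1 (-0.91) and NOP14 (-0.535), all act on the small subunit. With a share of falls near that of all genes at the threshold, the count by itself does not set the members apart in this line, and Pol I and its factors had 0 of 8 called.

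UTP20 is a large scaffold of the small subunit processome, and its signal in MOLM-14 was 334, 465 and 448 with Combination, 533, 523 and 450.1 with SAHA, 1098, 1361 and 1165 with ABT-869, and 1119.8, 928 and 821 with DMSO. In MV4-11 the UTP20 readings were 590.0, 725 and 892 with Combination, 604, 626 and 505 with SAHA, 1102, 676 and 1094 with ABT-869, and 671, 637 and 818 with DMSO. UTP20 fell to 415 ± 71.3 in MOLM-14 with Combination, against 956 ± 152 with DMSO (SD, n = 3 each, adjusted p = 0.00694, limma), and to 502 ± 45.2 with SAHA (adjusted p = 0.0209). In MV4-11 the Combination and DMSO arrays overlapped (0.04).
TSR1 is required for late maturation of the small subunit, and its signal in MOLM-14 was 1107, 1624 and 1142 with Combination, 1407, 1385 and 1437 with SAHA, 2486, 2541 and 2710.3 with ABT-869, and 2781, 2317 and 2113 with DMSO. In MV4-11 the TSR1 readings were 2441, 2375 and 2095 with Combination, 1529.7, 1382 and 1242 with SAHA, 2189.5, 1738 and 2317 with ABT-869, and 1636, 1533 and 1694 with DMSO. It fell in MOLM-14 with Combination (-0.91, SE 0.17, adjusted p = 0.0152, limma), with no overlap with DMSO, and in MV4-11 its Combination arrays lay above its DMSO arrays without passing the threshold (0.505, adjusted p = 0.0679). The fall was no longer called without MOLM-14 DMSO replicate 1 or 2 or Combination replicate 3 (adjusted p up to 0.153), whereas that of UTP20 was called whichever array was left out and was lost with the 6 arrays of the groups fitted alone (adjusted p = 0.107). NOP14 was no longer called after any of 5 removals, and leaving out 1 array gave 1 to 4 falls, with 1 without MOLM-14 DMSO replicate 1 or 2 or Combination replicate 3. A second TSR1 probe set also fell (-0.675, adjusted p = 0.00722).

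SAHA alone was compared with the same 3 MOLM-14 DMSO arrays as Combination. It lowered UTP20 (-0.92), GRWD1 (-0.81), TSR1 (-0.76) and NIP7 (-0.67), the last a large subunit factor, 4 of 43 members (9.3%, against 3.62% of all genes lower and 4.2% higher), with a median of -0.235. Among the 8652 genes as bright, 6.37% were lower and 7.82% higher, so the count of 4 by itself does not set the members apart. Leaving out 1 array gave 0 to 4 falls, with 0 without MOLM-14 DMSO replicate 2 or SAHA replicate 2 or 3, and 1 or 2 without DMSO replicate 1 or 3, SAHA replicate 1 or ABT-869 replicate 3. At an unadjusted p under 0.05, 16 were lower and 0 higher, and limma-trend called 14, all lower. Of all 19775 genes, 2745 were lower and 2342 higher at that unadjusted p. Centring the arrays on their medians moved the median of all genes from -0.10 to 0.15, turned the median of the members to 0.015 and left 0 calls, and it shifts all genes alike. Relative to all genes the members lay at -0.14 as deposited and at -0.23 after quantile normalization. With ABT-869, 0 of 43 members changed by limma (0.0152% of all genes lower and 0.00506% higher), 41 log2 changes were above 0 (median 0.16) and 6 members were higher at an unadjusted p under 0.05, 1 by limma-trend. Of all 19775 genes, 871 were lower and 653 higher at that unadjusted p with ABT-869.

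Set against ABT-869, Combination lowered 14 of 43 members in MOLM-14 and raised 0 (32.6% lower, against 5.48% of all genes lower and 6.52% higher), with a median of -0.40. The largest falls were UTP20 (-1.55), TSR1 (-1.02), NOP14 (-0.83) and GRWD1 (-0.81), and 7 of 17 small subunit genes, 4 of 10 large subunit genes, NCL, GRWD1 and NOP58 made up the count. Leaving out 1 array gave 5 to 11 falls, with 5 or 6 without any Combination array or ABT-869 replicate 1 or 2, and 8 or 9 without ABT-869 replicate 3, SAHA replicate 1 or 3 or DMSO replicate 2. Against SAHA, Combination changed 0 of 43 members by limma or limma-trend (0.0% of all genes in either direction), and 3 were higher and 0 lower at an unadjusted p under 0.05. That unadjusted count is given without a share over all genes. These comparisons share the Combination arrays with the comparison against DMSO.

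**Figure D3:**
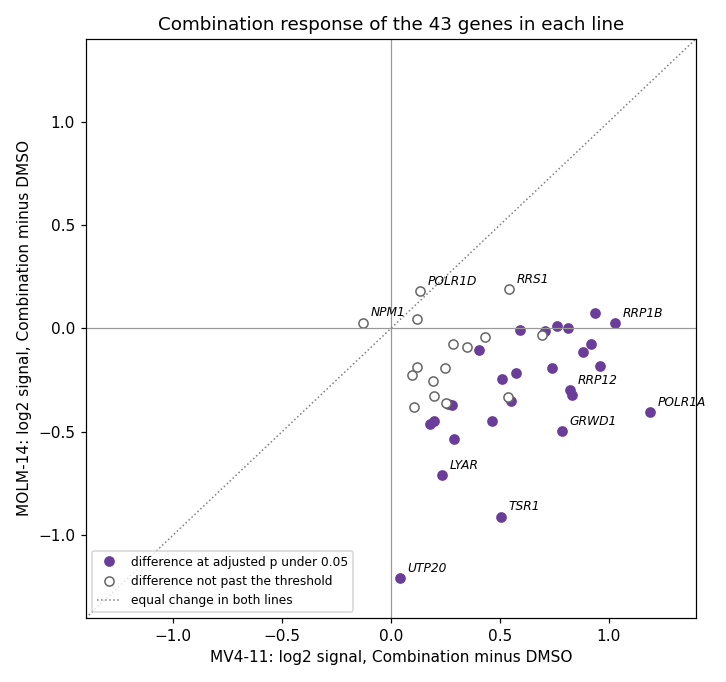
Log2 change of each gene with Combination against DMSO in MOLM-14 (vertical) and MV4-11 (horizontal). Filled points are the 27 genes whose responses differed between the lines, 35 points lie in the area that is below 0 in MOLM-14 and above 0 in MV4-11, and POLR1A and TSR1 are farthest from the dotted line of equal change.

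The difference between the lines was tested directly, as the response of MOLM-14 minus that of MV4-11 in 1 fit over the 24 arrays. With Combination the response was lower in MOLM-14 for 27 of 43 members and higher for 0 (62.8%, against 5.63% of all genes lower and 4.88% higher, and 11.7% lower among the 8652 genes as bright), with a median difference of -0.72, against 0.04 over all genes. By role it was lower for 5 of 8 genes of Pol I and its factors, 2 of 4 snoRNP genes, 3 of 4 abundant nucleolar proteins, 11 of 17 small subunit genes and 6 of 10 large subunit genes. The largest were POLR1A (-1.59, SE 0.25, adjusted p = 0.000718, limma) and TSR1 (-1.415, SE 0.21, adjusted p = 0.000502), followed by GRWD1 (-1.28), UTP20 (-1.249), DDX56 (-1.15) and NOP16 (-1.14). All 3 probe sets of POLR1A were past the threshold in this test (-1.59, -2.25 and -0.81), as were 3 of the 4 of TSR1, the fourth being at -0.13.

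The 27 genes can be sorted by which comparison within a line passed the threshold. Of them 16 were called higher in MV4-11, among them POLR1A and RRP1B, and 3 were called lower in MOLM-14 (UTP20, TSR1 and NOP14). The other 8 passed the threshold in neither line alone. This sorting is not a test that a gene moved in 1 line only, and TSR1, for example, was also at 0.505 in MV4-11. In direction, 35 of the 43 members were below 0 in MOLM-14 and above 0 in MV4-11, 7 were above 0 in both, and NPM1 alone was above 0 in MOLM-14 and below 0 in MV4-11. Across the members the changes in the lines, which share no arrays, were weakly related (Pearson r = 0.23, Spearman rho = 0.23, over 43 genes that share the arrays of each line and are not independent). Leaving out 1 array at a time gave 20 to 28 genes, and 20 of the 27 were called whichever array was left out. Under every alternative except the added 2-fold rule, 12 were called: POLR1A, POLR1B, POLR1C, NOLC1, NOP58, GRWD1, UTP14A, UTP20, NOP14, TSR1, DDX21 and NIP7. Asking for a 2-fold difference as well left 8 of the 27. With the mean of all probe sets of a gene, PES1 turned to 0.04.

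For the single drugs the difference was not past the threshold for any member. For SAHA 0 of 43 differed by limma (1.04% of all genes lower and 1.02% higher), with a median of -0.33 and 18 lower and 0 higher at an unadjusted p under 0.05, and limma-trend called 5, all lower. For ABT-869 0 of 43 differed by limma or limma-trend (0.253% of all genes lower and 0.293% higher), with a median of -0.01 and 2 lower and 0 higher at an unadjusted p under 0.05. For both drugs the counts at the unadjusted p are given without a share over all genes, so they do not set the members apart.

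The levels of the members show how the lines changed places. The mean log2 signal was higher in MOLM-14 for 1 of 43 members with Combination (RRS1 by 0.03, median -0.325), 28 with SAHA (median 0.055), 37 with ABT-869 (median 0.32) and 39 with DMSO (median 0.395). POLR1A had the largest difference with Combination, at 633 ± 40 in MOLM-14 against 1269 ± 125 in MV4-11 (SD, n = 3 each, log2 -1.001), and with DMSO it was higher in MOLM-14 by 0.59 (adjusted p = 0.0406, limma, a call lost under 11 of 32 alternatives). Since the DMSO arrays enter both the difference in response and the difference with DMSO, these are given side by side and not as separate support: of the 27 genes, 17 were also higher in MOLM-14 with DMSO. The median log2 signal over the members was highest with ABT-869 in MOLM-14 (11.22) and Combination in MV4-11 (11.14), and lowest with SAHA (10.65) and DMSO (10.65) in MV4-11.

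**Figure D4:**
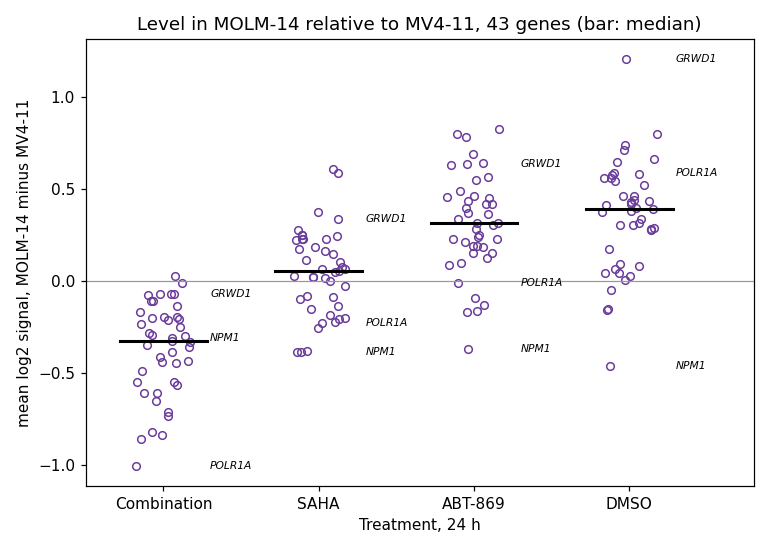
Mean log2 signal in MOLM-14 minus that in MV4-11 for each of the 43 genes (circles) under each treatment, with the median as a bar. The median is -0.325 with Combination and 0.395 with DMSO, and POLR1A is the lowest point with Combination.

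Other lists were counted by the same rule. Of the 82 other ribosome biogenesis factors, 24 rose and 2 fell with Combination in MV4-11 (29.3% and 2.44%, against 7.1% and 5.82% of all genes, median 0.39). The rises were led by NOP9 (1.24) and WDR46 (1.155), and the 2 that fell were the exosome subunits EXOSC8 (-1.003) and EXOSC9 (-0.58). In MOLM-14 9 of the 82 fell and 0 rose (11.0% lower, against 4.18% of all genes, median -0.18), led by DDX55 (-1.06) and RBM28 (-0.82). Among the 8652 genes as bright 8.25% fell and 8.55% rose there, so the share of falls by itself does not set this list apart in MOLM-14. The difference between the lines was called for 38 of the 82, all lower in MOLM-14 (median -0.585), against 5.63% of all genes lower. Of 14 other Pol I subunits and factors, 2 rose in MV4-11, the shared subunit POLR2L (1.42) and POLR1F (0.68), and in MOLM-14 TCOF1, the Pol I cofactor treacle, fell (-0.975) and POLR1F rose (0.64). Among 21 Pol III genes, POLR3B rose in MV4-11 (0.945) and POLR3G (-0.91) and GTF3C6 (-0.60) fell in MOLM-14. The shares that rose in MV4-11 were 14.3% of the other Pol I genes and 4.76% of the Pol III genes, against 13.8% of the 8652 genes as bright. In MOLM-14 7.14% and 9.52% fell, against 8.25% of genes as bright. The counts of these 2 lists therefore do not set them apart.

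The ribosomal protein genes had no calls for Combination against DMSO or for the difference in that response. With Combination 0 of 53 changed by limma in MOLM-14 (median 0.10, 0 at an unadjusted p under 0.05) or in MV4-11 (median -0.10, 1 lower at that p), and 0 of 53 differed in response (median 0.18, 1 higher at that p). Proliferation genes, by contrast, fell in both lines: 15 of 24 in MOLM-14 with 0 higher (median -0.97), among them CDC45 (-2.43) and CDC6 (-2.26), and 17 of 24 in MV4-11 with 1 higher, CCNE2 (median -1.02), among them PLK1 (-1.66) and TOP2A (-1.62). So 17 members rose in MV4-11 cultures whose proliferation genes fell. Whether a change in the make-up or cycle of the cultures has a part in the members' values was not tested.

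MYC itself did not pass the threshold with any treatment. It averaged 15307 ± 385 with Combination in MOLM-14, against 13919.6 ± 314 with DMSO (log2 0.14, adjusted p = 0.584, limma), and 23026 ± 1424 with Combination in MV4-11, against 20907 ± 359.9 with DMSO (log2 0.14, adjusted p = 0.548). Its responses to Combination did not differ measurably between the lines (difference -0.001, SE 0.14). Of the MYC antagonists, MXD3 (-1.84) and MXI1 (-0.76) fell in MV4-11, and the response of both was higher in MOLM-14 (1.83 and 0.82). MXD1 rose in MOLM-14 (0.55) and its response was also higher there (0.76). MAX and MLXIP, the partner of the MAX-like protein MLX, rose in both lines (0.59 and 0.51 in MOLM-14, 0.48 and 0.78 in MV4-11).

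**Figure D5:**
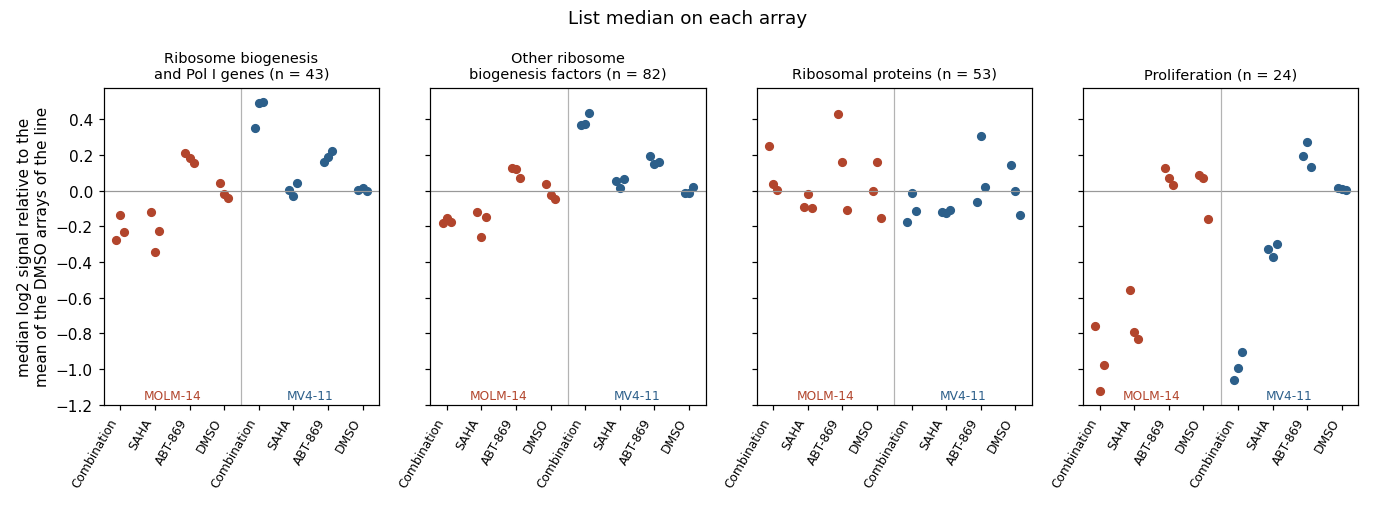
Median log2 signal of 4 gene lists on each array (points), relative to the mean of the DMSO arrays of the same line, MOLM-14 left and MV4-11 right. The 43 genes are at -0.28 to -0.135 on the MOLM-14 Combination arrays and at 0.35 to 0.50 on those of MV4-11, the other biogenesis factors follow, the ribosomal proteins scatter around 0, and the proliferation genes are at -1.12 to -0.76 on the MOLM-14 and -1.06 to -0.90 on the MV4-11 Combination arrays.

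Of the 43 members, 9 were called in none of the 14 comparisons: POLR1D, POLR1E, RRN3, FBL, BYSL, DDX10, NAT10, RRS1 and WDR74. Fibrillarin and POLR1D are among the brightest members, and BYSL, DDX10 and NAT10 act on the small subunit, so the members without a call came from several steps. A missing call does not mean no change. With Combination in MV4-11 the RRS1 arrays (1790, 2428 and 2009) lay above those with DMSO (1544, 1332 and 1373). BYSL was at 0.43 there and FBL at 0.12. UTP15, the dimmest member and a small subunit processome protein, had signals of 310.3, 289.5 and 289 with Combination, 283, 346 and 268 with SAHA, 471, 445 and 387 with ABT-869, and 389, 336 and 396 with DMSO in MOLM-14. In MV4-11 the UTP15 readings were 377, 497 and 284 with Combination, 209, 289 and 258 with SAHA, 277, 201 and 261 with ABT-869, and 304, 205 and 279.9 with DMSO. Its Combination arrays in MV4-11 spread widely and overlapped with DMSO (log2 0.54), and it was called only in Combination against ABT-869 in MOLM-14 (-0.55).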

How the data were processed

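RNA of 24 cultures (2 lines, 4 treatments, 3 cultures each, called biological triplicates in the methods) was measured on Affymetrix U133 Plus 2.0 arrays. The authors deposited 1 linear signal intensity per probe set, scaled to a trimmed mean of 500.06 to 500.07 on every array. Which software made these intensities is unknown here. Precision is limited by how many arrays there are, and the median signal per array was 61.3 to 99.6. Of 54675 probe sets, 62 controls were left out, 41091 name 1 gene, 1801 several and 11721 none in the platform annotation used here, and 41037 of the 41091 matched a current gene ID. Signals under 1 (0.209% of values) were set to 1 before taking log2.

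limma 3.58.1 in R 4.3.3 was fitted per line over 12 arrays for the comparisons within it, and over all 24 arrays and 8 groups for differences between the lines, with Benjamini-Hochberg adjustment over 54613 probe sets and a threshold of 0.05. With 3 arrays against 3 the smallest exact permutation p is 0.1, so that test was not used. Genes given on every array are the 8 Pol I genes, the 2 largest calls per comparison with DMSO and between the lines, and the brightest and dimmest member. The deviations of same-numbered arrays had correlations of -0.19 to 0.184 in MV4-11 and -0.063 to 0.328 in MOLM-14, where 6 of 18 were over 0.1. The numbers were not taken as pairs in the main fit, and a fit with the number as a block was an alternative. Members and lists were chosen with earlier results of these data known. Alternatives were other normalizations, filters, fits and probe set choices, and leaving out each array. Calls under the alternatives, limma-trend among them, were counted for the members alone and not over all genes. Sequences are from RefSeq (GRCh38.p14).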

Additional observations from a re-analysis of the deposited data

Results flagged for a closer look

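The response to Combination differed between the lines, MOLM-14 minus MV4-11, for 27 of 43 members by a test of the difference itself (limma, adjusted p under 0.05), and all 27 were lower in MOLM-14. POLR1A (-1.589, adjusted p = 0.000718) and TSR1 (-1.415, adjusted p = 0.000502) had the largest differences. The adjusted p of POLR1A stayed between 2.35e-05 and 0.00734 over 32 alternatives, and that of TSR1 between 7.8e-06 and 0.00228. The DMSO arrays that enter this difference are also those on which 17 of the 27 were higher in MOLM-14, and the part of the starting level in the difference was not tested.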

How the results depend on the processing

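Over 89 calls of a member in a comparison, 2428 alternative values were computed: 1957 kept the call, 469 lost it and 2 turned its direction, both with the mean of all probe sets of a gene (DDX56 for Combination against ABT-869 in MOLM-14, 0.225, and PES1 for the difference in response to Combination, 0.039). The cause of the shifts in the counts of members called was not tested. For Combination against DMSO in MV4-11 (17 members), 11 were called with the replicate number as a block, 2 with only the groups compared and 2 when a 2-fold change was also asked, and 10 to 17 when 1 array was left out. For Combination in MOLM-14 (3) the counts were 5 with quantile normalization, 9 with a floor of 32, 10 without dim probe sets, 13 by limma-trend, 10 in 1 fit over all arrays, 0 with only the groups compared, 5 with the mean of probe sets, 1 at 2-fold, 1 without 4 arrays that an earlier look at these data had set apart (MOLM-14 Combination replicate 1 and DMSO replicate 3, MV4-11 Combination replicate 3 and ABT-869 replicate 2), and 1 to 4 leaving out 1 array. For SAHA in MOLM-14 (4) they were 7, 12, 14, 14, 8, 0, 9, 0 and 2 in the same order, with 0 on centred arrays, 1 with the block and 0 to 4 leaving out 1 array, and the median of the members turned to 0.015 on centred arrays. For SAHA in MV4-11 (0) they were 4 with a floor of 32, 5 without dim probe sets, 5 by limma-trend, 3 in 1 fit and 0 to 1 leaving out 1 array, for ABT-869 in MV4-11 (0) 8, 8, 8, 5 and 0 to 0, and for ABT-869 in MOLM-14 (0) 1 with a floor of 32, 1 by limma-trend and 0 to 0.

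For Combination against ABT-869 in MV4-11 (3) the counts were 12 with a floor of 32, 12 without dim probe sets, 12 by limma-trend, 9 in 1 fit, 0 with the block, with only the groups compared, at 2-fold or without 4 arrays, 1 with the mean of probe sets, and 0 to 1 leaving out 1 array. For Combination against SAHA in MV4-11 (1) they were 21, 25, 27 and 25 in the first 4, 2 with quantile normalization, 0 on centred arrays, with the block or with only the groups compared, 3 with the mean of probe sets, and 0 to 1 leaving out 1 array. For Combination against ABT-869 in MOLM-14 (14) they were 24 with a floor of 32, 26 without dim probe sets, 28 by limma-trend, 9 with the block, 1 with only the groups compared, 2 at 2-fold, 6 without 4 arrays, and 5 to 11 leaving out 1 array. The difference in response to SAHA (0) gave 1 with quantile normalization, 5 with a floor of 32, 7 without dim probe sets, 5 by limma-trend, 2 with the mean of probe sets and 0 to 1 leaving out 1 array. That to Combination (27) gave 8 at 2-fold, 26 with the block and 20 to 28 leaving out 1 array. With DMSO, MOLM-14 against MV4-11 (20) gave 9 with the mean of probe sets, 1 at 2-fold, 17 with the block and 11 to 22 leaving out 1 array. Combination against SAHA in MOLM-14 and the difference in response to ABT-869 gave 0 under every alternative run.

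Small uncalled values of the Pol I genes changed sign. POLR1E with DMSO was -0.025 with quantile normalization, -0.060 with the mean of probe sets, -0.014 without 4 arrays, and -0.029 to 0.073 leaving out 1 DMSO array (-0.019 and -0.029 without MV4-11 DMSO replicates 1 and 2, -0.014 without MOLM-14 DMSO replicate 3). POLR1B with Combination in MOLM-14 was -0.042 on centred arrays, -0.132 with the mean of probe sets and -0.010 without MOLM-14 DMSO replicate 1, and POLR1C there was -0.101 with the mean of probe sets. POLR1D was -0.047 on centred arrays, -0.001 without 4 arrays, -0.008 without MV4-11 Combination replicate 1 and -0.001 without MOLM-14 Combination replicate 1 (range -0.008 to 0.094 leaving out 1 array) for the difference in response, 0.107 on centred arrays with DMSO, and -0.144 with the mean of probe sets for Combination in MV4-11. Replicate numbers were treated as labels, and 2 of 12 arrays in MV4-11 and 7 of 12 in MOLM-14 correlated best with their own number. Whether same-numbered cultures of MOLM-14 shared a batch is not stated and was not tested.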
